A study of Gallus gallus with 2 samples.

Results

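Splicing events of the chicken Z chromosome were examined in DT40 cells, a B-lymphoblast line from the bursa, the organ in which birds form their B lymphocytes. The 484 events are every row of the deposited splicing table that lies on chromosome Z, has exactly 2 read numbers per library and is not an exact repeat. They make up 4.69% of the 10313 events of the table and carry 243 of its 5409 gene names. The rule used position and the format of the row, and neither read depth nor inclusion level chose an event. The libraries were 1 of SRSF10-deficient cells (SRSF10-/-, called KO) and 1 of wild-type cells (called WT), and no treatment was listed for either. With 1 library per genotype there was no replicate check, and each test below compares the reads of those 2 libraries, not the genotypes. The labels do not say how many clones the KO library came from. SRSF10 had 0 events in the table, so the genotype label could not be checked on its target.

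Birds have Z and W sex chromosomes, with ZZ males and ZW females, and the Z is the large gene-rich member of the pair. Most Z genes have no partner on the small, degenerate W, but a handful of dosage-sensitive genes kept a W copy, and the chicken compensates the Z gene by gene and not by silencing a whole chromosome. SRSF10 belongs to the SR family of splicing factors, named for their serine- and arginine-rich domains, and promotes or represses the use of exons depending on where it binds. Splicing events come as cassette exons, kept or skipped as a whole, as alternative 3' or 5' splice sites, which move one edge of an exon, as retained introns and as mutually exclusive exons.

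Events lay between positions 138803 and 81818445 of chromosome Z in the galGal4 build. Of the 243 names, 200 matched a gene of the newer GRCg7b assembly (82.3%), and 198 of these lie on Z there as well. The exceptions were NEDD4L and NIPBL, whose matched entries lie on W in that assembly. The share of reads that came from a W copy was not tested. B-cell marker genes were looked up over the whole table, which lists alternative events only and so cannot test cell identity. Of 16 such genes, 12 had listed events, with 10722 event reads in KO and 9324 in WT. PAX5, CD74, BTK and SYK had none, which in a table of alternative events does not show that their RNA was missing. Of 8 T-lymphocyte markers, 2 had events, with 867 reads in KO and 149 in WT. CD3D held 759 of these in KO and 69 in WT, and the part of such differences between the cultures in any result below was not tested.

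Z events were shallower than autosomal ones. Exclusion and inclusion reads of the Z events summed to 41888 in KO and 37993 in WT, out of 2022343 reads in KO and 2047625 in WT over the table. The median Z event had 26.5 reads in KO and 26 in WT, whereas the median event of autosomes 1 to 28 had 40 in KO and 39 in WT. Inclusion is the inclusion reads as a percent of all reads of the event, and the header does not say which form of a splice-site pair or of an undefined event counts as included. An event was tested when it had at least 20 reads in each library. This left 244 Z events (50.4%) in 147 genes, against 59.6% of autosomal events, so 96 Z genes had no tested event. Tested Z events had a median of 88 reads in KO and 80.5 in WT, against 97 in KO and 95 in WT on autosomes.

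Few Z events differed between the libraries. The call of a changed event required an adjusted p under 0.05 in Fisher's exact test (Benjamini-Hochberg, all 6089 tested events of the table) and inclusion levels at least 10 percentage points apart. On Z, 5 of 244 events met this rule (2.05%; 95% Clopper-Pearson interval 0.669 to 4.72), against 4.6% of 5590 autosomal events (4.06 to 5.18) and 4.7% of the whole table. Inclusion was higher in KO in 2 of them (0.82%, against 2.36% of autosomal events) and lower in 3 (1.23%, against 2.24%). The Z interval contains the autosomal share, and Z ranked 27th of 29 chromosomes. Autosomes ran from 1.23% on chromosome 24 (1 of 81 tested events) to 38.5% on chromosome 16 (5 of 13), with chromosome 18 next highest at 11.0%. These intervals and all that follow cover counting error only.

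Most of the tested Z events lay close to the same level in both libraries. The median absolute difference was 1.80 points, against 2.38 on autosomes, and 72.5% of Z events lay within 5 points, against 69.4%. Inclusion was higher in KO for 120 events, lower for 106 and equal for 18. A difference of at least 10 points, whatever its p, was seen for 31 Z events (12.7%, against 14.8% of autosomal events), of which 19 had under 50 reads in a library. Of these 31, 13 were higher and 18 were lower in KO. An unadjusted p under 0.05 was found for 8.2% of Z events and 13.5% of autosomal ones. The levels of Z and of autosomal events were not compared by a test, and the lower depth of Z events stands beside each of these shares.

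**Figure D1:**
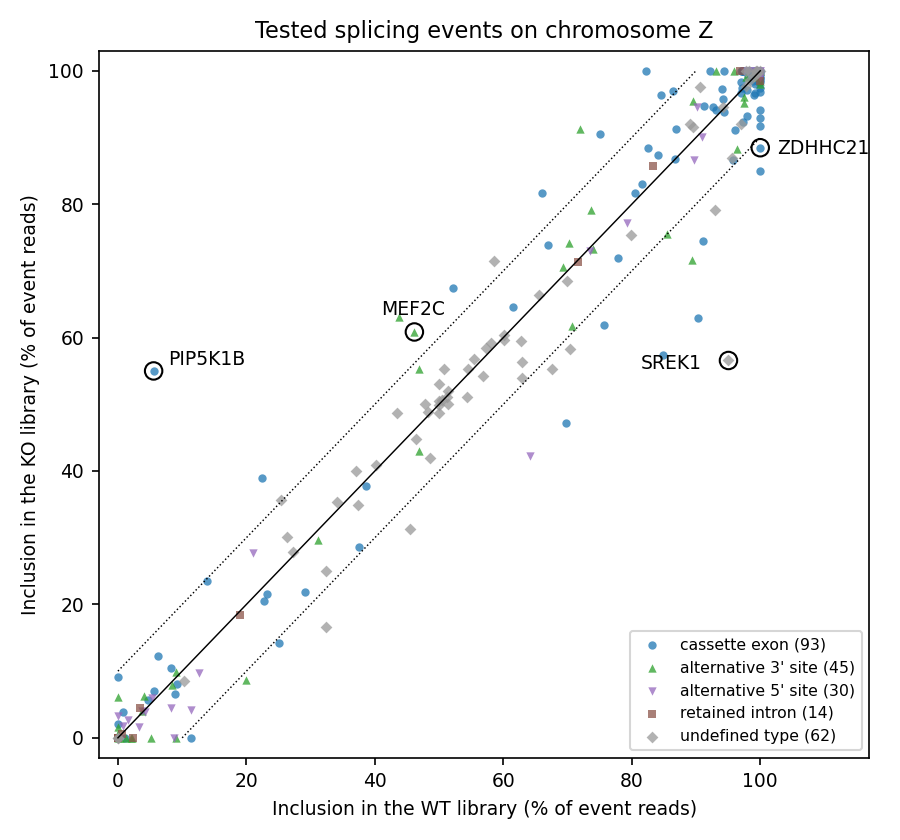
Inclusion level of each of the 244 tested Z events in the KO library (vertical axis, percent of event reads) against the WT library (horizontal axis, percent), with one symbol per event type and the number of tested events in the legend. The solid line marks equal levels, dotted lines mark 10 points of difference, and circles mark 4 of the changed events, PIP5K1B and MEF2C above the diagonal and SREK1 and ZDHHC21 below it.

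The lowest adjusted p on Z was that of SREK1, a splicing regulator that carries SR-like domains and works beside SR proteins. At its region of chromosome Z, 20743173 to 20743270, listed without a defined type, 56 of 99 reads supported inclusion in KO (56.6%; 46.2 to 66.5) and 96 of 101 in WT (95.05%; 88.8 to 98.4). Inclusion fell by 38.5 points in KO (95% interval of the difference -48.7 to -27.3; Fisher adjusted p = 5.00e-09). The KO level lay below the whole WT interval. In the authors' deposited table the adjusted p of this event was 0.00707. Total reads of the event were nearly the same in both libraries.

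PIP5K1B, a kinase that makes the membrane lipid phosphatidylinositol bisphosphate, had the widest difference among the tested Z events. Its 84 nt cassette exon (chromosome Z, 34371671 to 34371754) was included in 11 of 20 reads in KO (55%; 31.5 to 76.9) and in 2 of 36 in WT (5.56%; 0.68 to 18.7). The difference was 49.4 points (25.1 to 69), with a Fisher adjusted p of 0.00194 and, in the authors' deposited table, 0.000373. KO reads stood exactly at the minimum of 20, so the size of this change is known only within its wide interval.

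MEF2C, a MADS-box transcription factor that B cells use for survival and proliferation, changed at 1 of its 5 tested events. A pair of alternative 3' sites (chromosome Z, 60260100 to 60260196) had 188 of 309 inclusion reads in KO (60.8%; 55.2 to 66.3) and 138 of 299 in WT (46.2%; 40.4 to 52). The level rose by 14.7 points (6.76 to 22.4; Fisher adjusted p = 0.0084), while the adjusted p in the authors' deposited table was 0.749. Both libraries used both sites at intermediate levels, so the change was a shift in their balance. Elsewhere in the gene, a 138 nt cassette exon had 39 of 179 inclusion reads in KO (21.8%) and 82 of 282 in WT (29.1%), which was not a call (Fisher's exact adjusted p = 0.575). Its alternative 5' sites had 140 of 148 reads in KO and 201 of 223 in WT at one pair, and 298 of 344 in KO and 305 of 340 in WT at another. The remaining 3' site pair stood at 7.98% in KO and 8.40% in WT.

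ZDHHC21, an enzyme that attaches palmitate to proteins, skipped a 117 nt cassette exon (chromosome Z, 31537411 to 31537527) in KO reads. There 69 of 78 reads included the exon in KO (88.5%; 79.2 to 94.6) and 96 of 96 in WT, where 0 skipping reads allow a share of up to 3.125% by the limit of 3 counts. The difference was -11.5 points (-20.5 to -4.95; Fisher adjusted p = 0.0125), and the adjusted p in the authors' deposited table was 0.124. With the inclusion reads of cassette exons halved, since 2 junctions can support inclusion, the difference became -20.9 points.

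The calls differed in how far they held when counting noise was widened. Over the table, cassette exons differed between the libraries more than counting alone gives, with a median chi-square 3.97 times its expectation. Only events with enough expected reads of both forms entered this median. On Z these were 31 of 93 tested cassette exons, without PIP5K1B and ZDHHC21, and their median was 3.56 times its expectation. After each chi-square was divided by the value of its event type over the table, 1 Z event was still called (0.41%, against 0.859% of autosomal events). It was SREK1, at an adjusted p of 8.78e-08. The undefined type of SREK1 had a value under 1 and was left undivided, so this step did not widen its own counting noise. Its p here came from the undivided chi-square in place of Fisher's exact test, adjusted anew. The adjusted p became 1 for ZDHHC21, 0.503 for MEF2C and 0.835 for PIP5K1B.

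Among tested events that were not called, the widest decreases fell in genes of several kinds. PPIP5K2, which makes inositol pyrophosphates, had 2 cassette exons with lower KO levels. Its 63 nt exon (chromosome Z, 49803216 to 49803278) was included in 31 of 54 reads in KO (57.4%) and 39 of 46 in WT (84.8%; Fisher's exact adjusted p = 0.0653). Its 120 nt exon (49804156 to 49804275) was included in 25 of 53 in KO (47.2%) and 23 of 33 in WT (69.7%; Fisher's exact adjusted p = 0.362). The exons lie under 1 kb apart in one gene and are not independent. CAST encodes calpastatin, the inhibitor of calpain proteases, and its 84 nt exon (56851658 to 56851741) was included in 34 of 54 reads in KO (63.0%) and 37 of 41 in WT (90.2%). Its adjusted p was 0.0601 by Fisher's exact test and 0.000964 in the authors' deposited table. When cassette exons alone were tested, the CAST exon and the 63 nt exon of PPIP5K2 were called, at 0.044 and 0.0473.

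Other decreases without a call were in TOPORS, NIPBL and an unnamed locus. TOPORS, a ubiquitin and SUMO ligase, had 11 of 26 reads at alternative 5' sites in KO (42.3%) and 25 of 39 in WT (64.1%; Fisher's exact adjusted p = 0.631). NIPBL loads the cohesin ring on chromosomes, and its 633 nt exon (11247044 to 11247676) was included in 41 of 55 reads in KO (74.5%) and 51 of 56 in WT (91.1%; Fisher's exact adjusted p = 0.238). The assembled locus XLOC_022354 had 10 of 60 inclusion reads in KO (16.7%) and 23 of 71 in WT (32.4%; Fisher's exact adjusted p = 0.353) at an undefined event. In each of these cases the KO interval overlapped the WT one.

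The 6 widest increases among tested events without a call had Fisher's exact adjusted p values between 0.0821 and 0.556. UBAP2, a ubiquitin-associated protein listed as LOC407092, had 21 of 23 reads at alternative 3' sites in KO (91.3%) and 23 of 32 in WT (71.9%). BDP1, a subunit of the RNA polymerase III factor TFIIIB, had 36 of 57 reads in KO (63.2%) and 35 of 80 in WT (43.75%) at alternative 3' sites. XRCC4, a scaffold of DNA end joining, included a 153 nt exon in 24 of 24 reads in KO and 23 of 28 in WT (82.1%). The lack of skipping in KO at 24 reads allows a share of up to 12.5% by the same limit, and the gap to WT did not reach a call at this depth. SPIN1, a reader of methylated histone H3 listed as SPINZ, included a 33 nt exon in 30 of 77 reads in KO (39.0%) and 13 of 58 in WT (22.4%). PAPD4, a cytoplasmic poly(A) polymerase, included an 87 nt exon in 107 of 131 reads in KO (81.7%) and 76 of 115 in WT (66.1%). RGP1, part of an exchange factor for the Golgi GTPase Rab6, included a 130 nt exon in 48 of 53 reads in KO (90.6%) and 42 of 56 in WT (75%). The exon of PAPD4 was the deepest of the 6 and had the lowest p, 0.0821, and it had an adjusted p of 0.014 in the authors' deposited table.

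**Figure D2:**
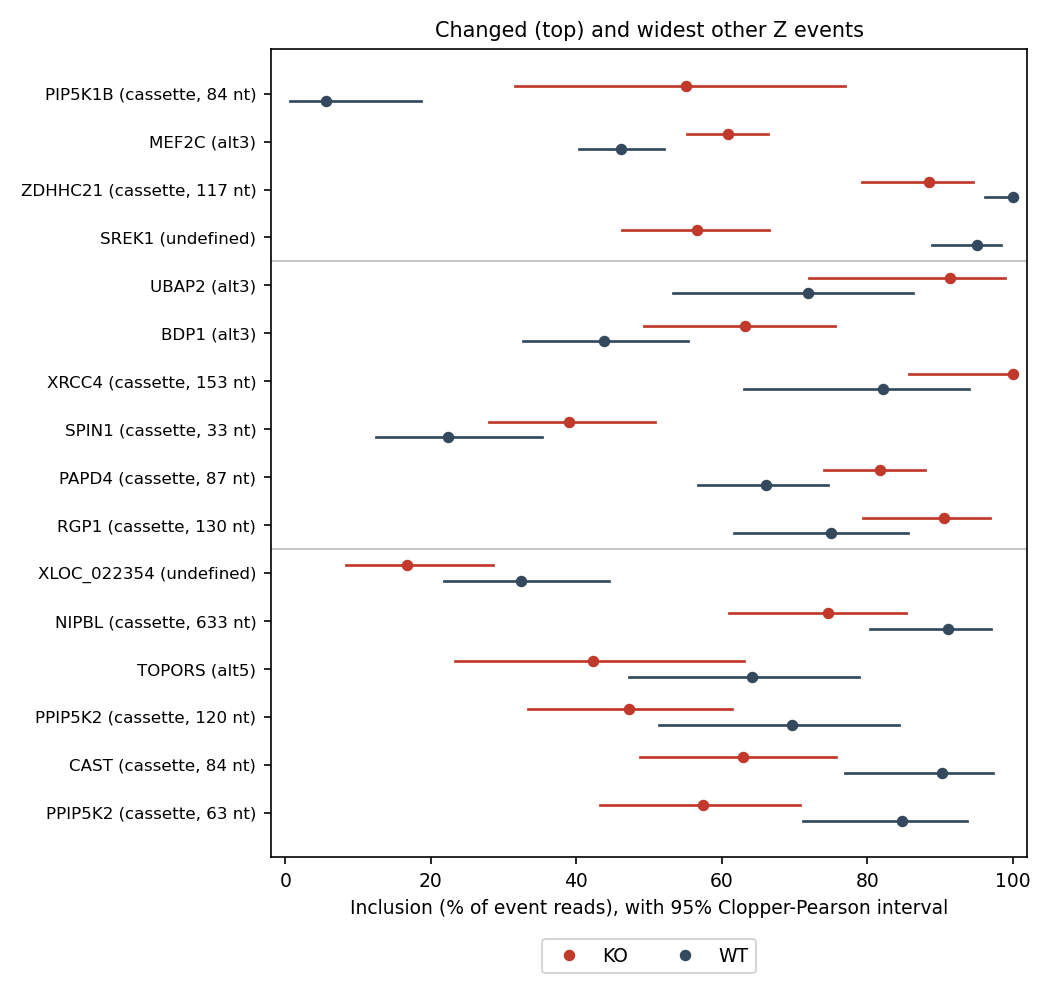
Inclusion level (horizontal axis, percent of event reads) of 4 changed Z events and of the 6 widest tested events without a call in each direction. KO stands above WT in each row, with 95% Clopper-Pearson intervals as lines. Changed events fill the top panel, higher KO levels without a call the middle one and lower KO levels the bottom one. Intervals of KO and WT touch or overlap in most of the uncalled rows. Those of the 4 changed events lie apart, among them SREK1 (56.6% in KO, 95.05% in WT) and PIP5K1B.

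The adjusted p-values in the authors' deposited table were under 0.05 for 5 of the 484 Z events (1.03%, against 1.72% of autosomal events), in PIP5K1B, CAST, SREK1, PAPD4 and CHD1. CHD1, a chromatin remodeller with a W copy long used to sex birds, included a 264 nt exon in 34 of 55 reads in KO (61.8%) and 59 of 78 in WT (75.6%). Its adjusted p was 0.627 by Fisher's exact test and 0.0383 in the authors' deposited table. Only SREK1 and PIP5K1B were called by both. One further exon passed the p threshold with a difference under 10 points. ZFR, a zinc-finger RNA-binding protein, included its 219 nt exon in 174 of 185 reads in KO (94.05%) and 184 of 184 in WT, a decrease of 5.95 points (difference -5.95; Fisher adjusted p = 0.0177).

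By event type, Z held 165 cassette exons, 90 alternative 3' and 72 alternative 5' site pairs, 45 retained introns, 5 mutually exclusive exons and 107 undefined events. Of 93 tested cassette exons, 2 were changed (2.15%, against 6.14% of autosomal cassette exons). Among 45 tested 3' site pairs, 2 were changed (4.44%, against 4.07%), and among 62 undefined events 1 was (1.61%, against 0.709%). No change was called in 30 tested 5' site pairs or 14 retained introns, where the autosomal shares were 4.2% and 4.37%. No mutually exclusive exon of Z reached the minimum depth. On autosomes 36 of 82 tested mutually exclusive events were changed, and these are among the 257 calls behind the autosomal share of 4.6%. The shares of Z and autosomes were not matched for event type.

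Cassette exons of Z were mostly included in both libraries. Median inclusion was 94.1% in KO and 94.3% in WT, against 89.9% in KO and 88.5% in WT on autosomes, and 36 of 93 exons (38.7%) were at 95% or more in both libraries, against 33.8% of autosomal exons. Levels between 20% and 80% in WT were found for 16.1% of Z exons and 24.6% of autosomal ones. In length the Z exons were like the rest: the median was 102 nt in both sets, 58.2% of Z exons and 56.9% of autosomal exons had a length divisible by 3, and 16.4% and 14.4% were at most 45 nt long. Alternative 3' sites lay within 12 nt of each other in 31.1% of Z pairs and 29.7% of autosomal pairs, and 5' sites in 26.4% and 26.9%. None of these shares was tested between Z and autosomes.

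Some rows are not separate events. In 5 pairs of tested Z events, in BDP1, BRIX1, HNRNPK, IKBKAP and XLOC_022354, one row's inclusion numbers matched the other row's exclusion numbers to within 1 read, and a pair in HOOK3 had equal numbers. In 11 of the 62 tested undefined events the 2 numbers lay within 10% of their sum in both libraries. SUB1, a transcriptional coactivator, is an example, with 194 of 389 reads in KO and 206 of 412 in WT. None of the 5 changed events was among the paired rows.

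The deepest Z events differed by small amounts. HMGCS1, the synthase at the start of the sterol pathway, included a 126 nt exon in 1983 of 1983 reads in KO and 811 of 812 in WT. ATP5A1, the alpha subunit of mitochondrial ATP synthase, included a 170 nt exon in 1172 of 1173 reads in KO and 1029 of 1029 in WT. HNRNPK, an RNA- and DNA-binding protein of the hnRNP family, had 904 of 1003 reads in KO (90.1%) and 729 of 802 in WT (90.9%) at alternative 5' sites, whose mirror row gave 99 of 1002 in KO and 73 of 802 in WT. Its 80 nt cassette exon was at 922 of 963 reads in KO (95.7%) and 779 of 827 in WT (94.2%). With so many reads, these are the Z levels known best, and each differed by under 2 points. SMC5, of the SMC5/6 DNA repair complex, had the most tested events of any Z gene, 7, and none was changed, the widest being a 114 nt exon with 39 of 45 reads in KO (86.7%) and 45 of 47 in WT (95.7%). ERBB2IP, a scaffold that binds the receptor ERBB2, had 6 tested events, all within 3.03 points.

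Z genes with a known W copy were represented by 11 names, 10 of them tested at 22 events. None of the 22 was changed, 11 were higher and 11 lower in KO, and the median absolute difference was 0.977 points, against 1.80 over all tested Z events and 2.36 over the table. Even so, events of UBAP2, SPIN1, NIPBL and CHD1 among the 22 lay at least 10 points apart without a call. The mirrored rows of HNRNPK add to both directions, and the gap between these medians was not tested. Set beside the 2.05% of Z events and 4.6% of autosomal events that were called, counts of 0 or 1 in this list and in those that follow, of 8 to 32 tested events each, are not a result about their genes. HNRNPK, ATP5A1, UBAP2 and SUB1 held the most reads. Of the 5 tested UBAP2 events, the other 4 differed by at most 1.01 points, among them 107 of 181 reads in KO (59.1%) and 86 of 148 in WT (58.1%). In summed reads, the median gene of this list had a log2 ratio of KO over WT of 0.14, against 0.08 over all Z genes and 0.03 on autosomes. None of 10 genes reached 2-fold, against 16.1% of Z genes and 11.8% of autosomal genes. With so few genes, this count is not a result about them either. Reads of a Z gene and of a similar W copy may be split or merged by alignment, so these levels are uncertain.

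RNA-processing and translation genes were of interest because SRSF10 is itself a splicing factor. On Z, 10 genes of this list were tested at 21 events, and 1, SREK1, was changed. SMU1, a spliceosome component, had 397 of 401 reads in KO (99.0%) and 443 of 453 in WT (97.8%) at alternative 3' sites, and its 2 cassette exons were at 239 of 244 and 242 of 242 in KO, against 251 of 253 and 245 of 246 in WT. BRIX1, a ribosome assembly factor, was at 339 of 341 in KO and 513 of 513 in WT. No tested event of SMU1, BRIX1 or HNRNPK differed by more than 5 points. Larger differences without a call occurred in other genes of the list. The 87 nt exon of PAPD4 rose by 15.6 points in KO (Fisher's exact adjusted p = 0.0821), and an undefined event of IPO11 rose by 12.8 points. The 219 nt exon of ZFR fell by 5.95 points (Fisher's exact adjusted p = 0.0177). Of the 21 events, 12 were higher and 9 lower in KO.

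The list of DNA repair and cell division was tested at 32 events of 17 genes, and none was changed (21 higher and 11 lower, with a median absolute difference of 2.40 points). MELK, a mitotic kinase, came close to the p threshold, with 206 of 211 reads in KO (97.6%) and 154 of 170 in WT (90.6%; Fisher's exact adjusted p = 0.0533) at an 87 nt undefined event. Its levels lay under 10 points apart, so it was short of the minimum difference as well. CCNH, the cyclin of the CDK-activating kinase, had 246 of 247 reads in KO and 190 of 191 in WT. Signalling and lymphocyte genes had 12 tested events in 4 genes with none changed. CD72, a B-cell co-receptor, had 455 of 457 reads in KO and 214 of 215 in WT at its 3' sites, and a 90 nt exon at 132 of 137 (96.4%) in KO and 99 of 100 in WT. DAPK1, a death-associated kinase, stood at 44.9% in KO and 46.4% in WT, and SEMA4D, a semaphorin of lymphocytes, at 55.4% in KO and 54.5% in WT.

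Membrane-traffic and cytoskeleton genes had 8 tested events in 5 genes, of which PIP5K1B was changed. TLN1, the integrin-linked adaptor talin, stood at 494 of 494 reads in KO and 496 of 497 in WT, and UBAP1, of the ESCRT-I sorting complex, at 86.8% in both. SNX2, an endosomal sorting protein, stood at 226 of 232 in KO and 209 of 209 in WT. APBA1 had 20 of 31 reads in KO and 16 of 26 in WT. Mitochondrial and metabolic genes had 19 tested events in 15 genes with none changed, HINT1 lying at 90 of 185 reads in KO and 69 of 138 in WT. Chromatin and transcription genes had 26 events in 14 genes, of which MEF2C was changed, and SMAD2, a signal carrier of TGF-beta, had 1 of 22 reads in KO and 2 of 24 in WT. Ubiquitin-system genes had 13 events in 6 genes with none changed. UBQLN1, a proteasome shuttle, had 775 of 775 reads in KO and 803 of 804 in WT, and NEDD4L, a ubiquitin ligase, had 141 of 191 in KO (73.8%) and 101 of 151 in WT (66.9%). ATG12, of the autophagy conjugation system, had 2 of 99 in KO and 0 of 116 in WT, which allows up to 2.59%.

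Read totals gave a second view of the chromosome. Reads of all events of a gene were summed per library and the ratio of KO to WT was scaled by the autosomal sums, a factor of 0.985. Since only alternative events are listed, these totals are not gene expression, and a change in the cells of a culture cannot be told apart from a change in RNA per cell. Over the whole of Z the scaled ratio was 1.12, where the autosomes together are at 1 by the scaling. Single autosomes lay to both sides, with 38738 reads in KO and 28142 in WT on chromosome 24, and 30872 in KO and 48667 in WT on chromosome 21. Within Z, HMGCS1 alone held 2093 reads in KO and 864 in WT.

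Among 174 Z genes with at least 40 reads over both libraries, the median log2 ratio was 0.08 (quartiles -0.24 and 0.49), and 97 genes were above 0 and 77 below. The autosomal median was 0.03 (quartiles -0.32 and 0.37), and Z ranked 13th of 29 chromosomes. Without undefined events the Z median was -0.01, so its sign depends on those rows, and the autosomal median fell as well, to 0.00028. Autosome medians ran from -0.86 on chromosome 21 to 0.32 on chromosome 24, with -0.36 on chromosome 12. Both Z medians lay inside this range, which was taken with undefined events kept. Along Z, medians of windows of 10 Mb lay between -0.15 and 0.25.

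**Figure D3:**
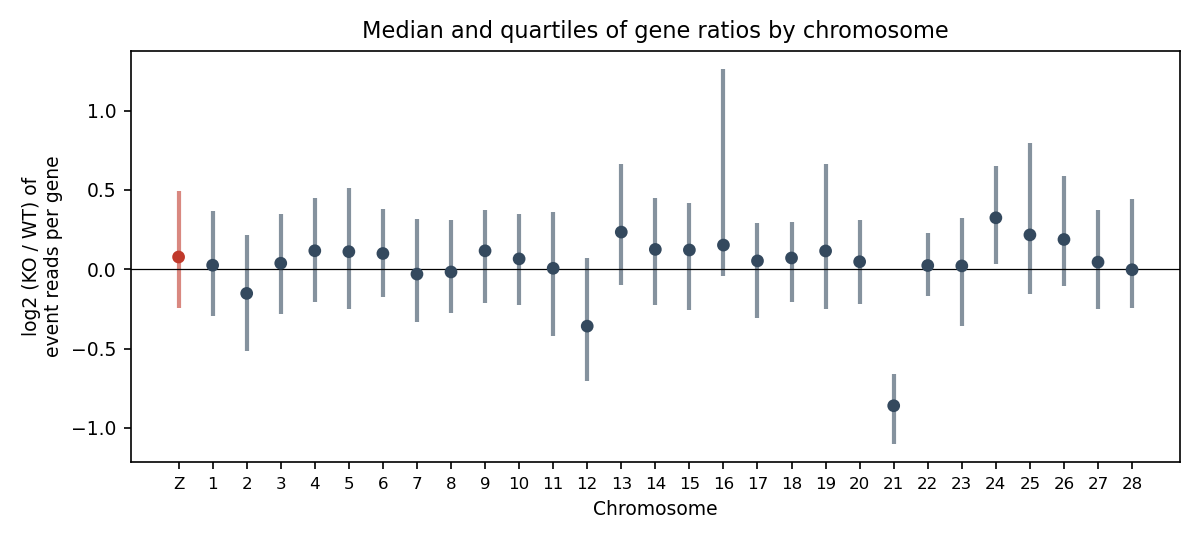
Median (points) and quartiles (lines) of the log2 ratio of KO over WT event reads per gene, for genes with at least 40 reads, by chromosome, with Z first in red. Z has a median of 0.08 and lies inside the range of the autosomes, whose lowest median is -0.86 on chromosome 21.

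Single genes varied more. At least 2-fold ratios were found for 28 of the 174 genes (16.1%, against 11.8% on autosomes), 20 higher in KO (11.5%, against 6.26%) and 8 lower (4.6%, against 5.58%). These ratios were not tested, for want of replicates. Z genes were also shallower, with a median of 100.5 reads in KO and 95 in WT, against 138.5 in KO and 139 in WT on autosomes. With copied rows of a gene counted once, 26 remained, without PDCD1LG2 and KIF27. All 28 counting intervals were clear of 1, which the choice of genes by fold and by at least 40 reads nearly fixed in advance. Only 14 of the genes had at least 100 reads over both libraries. At that minimum, 2-fold ratios made up 10.9% of Z genes and 8.98% of autosomal genes. The largest ratio was that of KIF2A, a kinesin that depolymerises microtubule ends, with 352 reads in KO and 20 in WT, a 17.9-fold difference (95% interval 11.4 to 29.6). Its 3 events all had fewer than 20 WT reads and were not tested for inclusion. One of them, a 91 nt cassette exon, had 130 of 130 inclusion reads in KO and 0 of 1 in WT.

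Other large ratios rested on few WT reads. ITGA2, an integrin collagen receptor listed as LOC100857227, had 43 reads in KO and 10 in WT (4.36-fold). PDCD1LG2, the ligand PD-L2 of the checkpoint receptor PD-1, had 40 in KO and 10 in WT (4.06-fold), but its 2 mutually exclusive rows mirror each other, so that 20 reads in KO and 5 in WT are distinct, under the minimum of 40. KIF24, a kinesin of the centriole, had 51 in KO and 16 in WT (3.23-fold). Each had under 20 WT reads in every event, so no inclusion test was made.

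HMGCS1 had many reads behind its ratio, with 2093 in KO and 864 in WT (2.46-fold; 2.27 to 2.66). Of the genes placed in the list of DNA repair and cell division, 6 of 20 were at least 2-fold higher in KO (KIF2A, PARP8, APTX, KIF24, CKS2 and ANKRD32). In the same list 1 gene, KIF27, was lower. Over all Z genes 11.5% were higher and 4.6% lower, and on autosomes 6.26% and 5.58%. The list's median log2 ratio was 0.30, against 0.08 over all Z genes. The list was written by hand with earlier results of these data known, so its share and median are not a result about its genes. APTX, which removes AMP from stalled DNA ligation ends, had 112 reads in KO and 44 in WT (2.58-fold), and PARP8 had 138 in KO and 51 in WT (2.75-fold). TLE1, a Groucho-family corepressor of the chromatin list, had 450 reads in KO and 206 in WT (2.22-fold).

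Median log2 ratios of the other lists were 0.11 for RNA processing (12 genes), 0.43 for signalling (4 genes), 0.07 for membrane traffic (7), 0.24 for mitochondria and metabolism (17), 0.22 for chromatin (14) and -0.04 for the ubiquitin system (6). At least 2-fold ratios in these lists also included those of GALT, an enzyme of galactose use, with 30 reads in KO and 10 in WT, JMY, an actin regulator listed as LOC427182, with 33 in KO and 16 in WT, and COL4A3BP, described next. Of the genes with a changed event, 4 had scaled ratios of KO over WT reads of 0.995 for SREK1, 0.897 for MEF2C, 0.824 for ZDHHC21 and 0.564 for PIP5K1B.

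Lower read totals in KO were led by XLOC_022683, an unnamed locus with 4 reads in KO and 37 in WT, 9.12-fold lower in KO. SNCAIP, which encodes the synuclein-binding protein synphilin, had 49 reads in KO and 196 in WT (3.94-fold lower). COL4A3BP, the ceramide transfer protein, had 33 in KO and 96 in WT (2.87-fold lower), and MAN2A1, a mannosidase of the Golgi, 15 in KO and 34 in WT (2.23-fold lower). GGA.8237, for which no annotation was found, had 16 reads in KO and 42 in WT (2.59-fold lower). All of its reads came from a 12 nt row typed as mutually exclusive, with 16 of 16 inclusion reads in KO and 1 of 42 in WT (2.38%). The minimum of 20 reads kept this contrast from the main test, and its adjusted p in the authors' deposited table was 0.0819. Mutually exclusive events had the widest spread of any type, with a median chi-square 13.7 times its expectation over the table. Among the genes with lower totals, only SNCAIP and COL4A3BP had at least 100 reads.

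**Figure D4:**
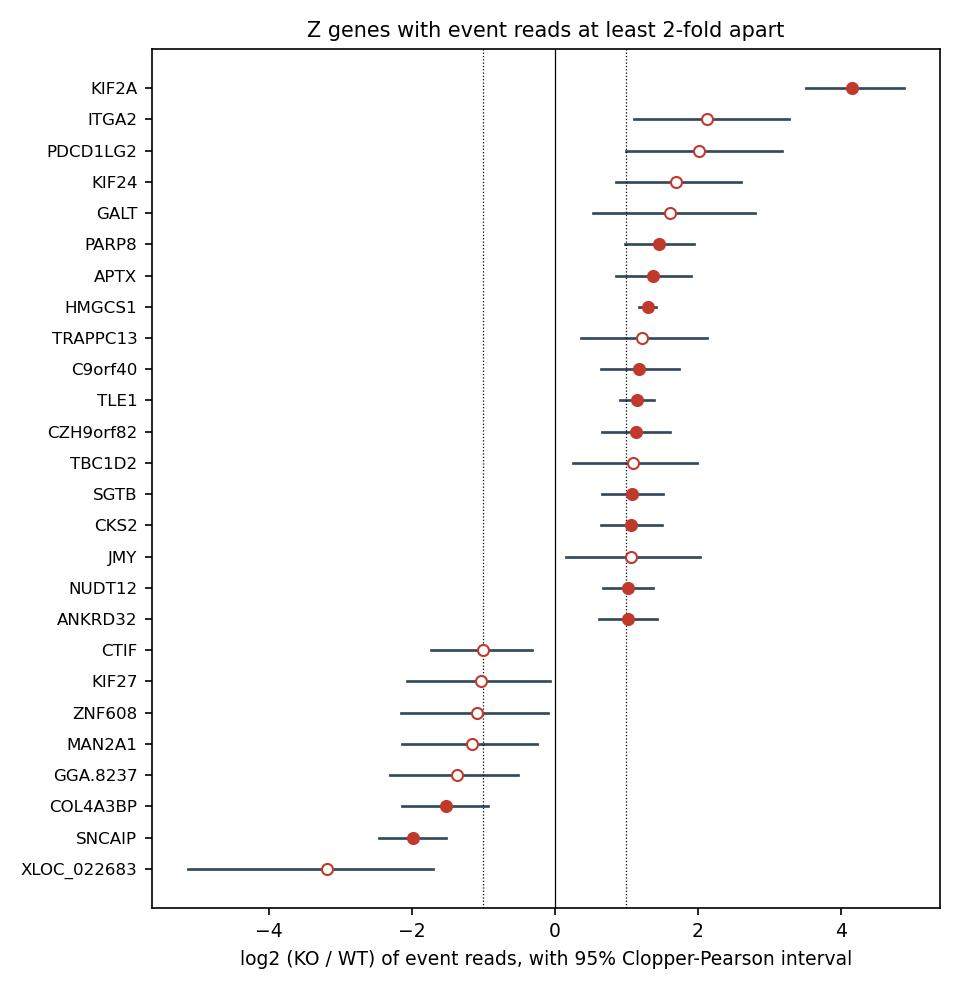
Log2 ratio of KO over WT event reads (horizontal axis), scaled by autosomal reads, for 26 of the 28 Z genes at least 2-fold apart, with 95% Clopper-Pearson intervals. Filled points have at least 100 reads over both libraries and open points fewer, and KIF2A stands apart at 4.16 while XLOC_022683, with 4 reads in KO and 37 in WT, is the lowest.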

How the data were processed

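Paired-end libraries were made from poly(A) RNA, per the labels' protocols. The submitters' processing notes name galGal4, Cufflinks and TopHat2 2.0.6, and the event caller is not given in the sources used here. Per the file headers, the deposited table gives raw exclusion and inclusion read counts per event, a position, a type and the authors' adjusted p-value. Of 496 Z rows, 8 with 3 or more numbers were left out and 4 repeats were removed, and 2 lacked the usual prefix or case. Fisher's exact test is two-sided; intervals of single shares and of read ratios are Clopper-Pearson. Where an event has 0 reads, the limit is 3 counts. Names were updated with the GRCg7b gene table, used for names and chromosomes only.

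Described events were the changed ones, the 6 widest other tested ones in each direction and the 5 deepest. Also described were the 3 genes with most tested events, up to 4 genes per list and the 5 largest read ratios in each direction. TLE1, PARP8, APTX, GALT and JMY were added after their values were seen, as were CHD1 and the 12 nt row of GGA.8237. A few events and genes within these criteria are not reported here. Members, rule and lists were chosen with earlier results of these data known. Calls were also tested on simulated data with known changes. Exon sequences were not analysed here. Tests ran in SciPy 1.17.1 with NumPy 2.4.6 and pandas 2.3.3 under Python 3.11.15, and figures were drawn with matplotlib 3.10.9.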

Additional observations from a re-analysis of the deposited data

How the results depend on the processing

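The count of 5 changed Z events became 2 at a minimum difference of 20 points, 3 at an adjusted p under 0.01, 1 with reads divided by 2 and 1 after division of each chi-square by the spread of its type, and lay between 4 and 6 under the 8 other alternatives. Over the alternatives that tested it, other than the authors' deposited p-values given in the report, the adjusted p ran from 3.85e-09 to 0.000274 for SREK1, 0.00154 to 0.835 for PIP5K1B, 0.00662 to 0.503 for MEF2C and 0.00972 to 1 for ZDHHC21. PIP5K1B had too few reads to be tested at a minimum of 50 reads, with reads divided by 2 and with cassette inclusion reads halved. SREK1 and MEF2C were not tested with cassette exons alone, nor SREK1 without undefined events. A similar count did not mean the same events. The 4 calls of cassette exons alone include CAST and PPIP5K2, and the authors' 5 share only SREK1 and PIP5K1B with the main calls. No changed event reversed its direction, but most alternatives reuse the same counts, so it could not reverse there. Those that divide or halve reads start from these counts too. The count of 28 genes with 2-fold read ratios became 14 at a minimum of 100 reads (10.9%, against 8.98% of autosomal genes). It became 59 at a fold of 1.5 (33.9%, against 29.2%) and lay between 22 and 35 otherwise. In those other settings, among them the deepest event of each gene, the Z share ran from 13.6% to 18.2% and the autosomal share from 11.2% to 14.6%. The median log2 ratio of 0.08 reversed to -0.0081 without undefined events, beside an autosomal median of 0.00028, and the cause was not tested. The Z median lay between 0.05 and 0.14 under the other 7 alternatives. Leaving out undefined events for the changed count, leaving chromosomes 12 and 21 out of the scaling and counting copied rows once were chosen after seeing the data. No paired analysis was possible because there was 1 library per genotype, and for the same reason no replicate could be left out. Depth limits the rest: 240 Z events had under 20 reads in a library.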

Other observations

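The table also listed 8 events under 5 names on the W chromosome or its unplaced scaffolds, with 318 reads in KO and 389 in WT. They belong to neither the Z nor the autosomal set, but those with at least 20 reads in each library are among the 6089 tested events of the table. The W copy of UBAP2 had a 3' site event whose listed ends lie as far apart as those of the Z event of UBAP2 described in the report. On W, 4 of 13 reads supported inclusion in KO (30.8%) and 2 of 23 in WT (8.70%), and on Z the levels were 91.3% in KO and 71.9% in WT. NIPBL on a W scaffold had a cassette exon with 7 of 12 inclusion reads in KO and 13 of 21 in WT, and an undefined event with 16 of 25 in KO and 22 of 37 in WT. WIZ, listed on another row of W scaffold sequence, had 64 of 74 reads in KO (86.5%) and 85 of 96 in WT (88.5%) at a retained intron. How reads were divided between Z and W copies was not tested.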
